A study of Caenorhabditis elegans with 205 samples.

Results

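The 10 genes of monoamine synthesis and transport in Caenorhabditis elegans were followed through RNA-seq libraries of neurons sorted by class. The genes are cat-2, dat-1, tph-1, mod-5, cat-4, ptps-1, bas-1, cat-1, tdc-1 and tbh-1, chosen by symbol, and they are 10 of the 46927 genes in the deposited count table. All 10 passed the filter on low counts, as did 20427 genes in all. The series holds libraries of total RNA from 53 neuron classes, each class named by its standard short code and represented by 2 to 6 libraries. Worms were grown on agar plates seeded with the Escherichia coli strain NA22, and cells were collected by fluorescence-activated cell sorting into Trizol; the labels used here give no genotype, strain, reporter construct, sex or age for any class. A label set could not be separated from class: 180 libraries of 46 classes carry a description that names the library kit, and 25 libraries of 7 classes (CEP, DVB, HSN, PVP, PVQ, RME and SIA) carry none. The labels do not say whether libraries of a class came from separate worm cultures, so the p-values measure only the spread between these libraries, which may be technical.

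Monoamines are made from aromatic amino acids in short chains of enzymes. Tyrosine hydroxylase (cat-2) and tryptophan hydroxylase (tph-1) carry out the committed steps towards dopamine and serotonin, and both need tetrahydrobiopterin, which GTP cyclohydrolase I (cat-4) and 6-pyruvoyl-tetrahydropterin synthase (ptps-1) help to make. The aromatic amino acid decarboxylase bas-1 completes both chains. Tyramine comes from tyrosine by the tyrosine decarboxylase tdc-1, and tyramine beta-hydroxylase (tbh-1) turns it into octopamine. The vesicular transporter cat-1 loads monoamines into synaptic vesicles, and the plasma membrane carriers dat-1 and mod-5 take dopamine and serotonin back up. In the worm, the CEP neurons are dopaminergic mechanosensory cells of the head, NSM and HSN are serotonergic motor neurons of the pharynx and of the egg-laying circuit, RIM is the tyraminergic and RIC the octopaminergic interneuron class. AIM is known to take up serotonin through mod-5, and VC and CAN are known as further sites of cat-1.

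Total counts per library ran from 798303 to 24647021, with a median of 4692492, and ribosomal RNA took 9.77% to 79.2% of them. Levels are given as TMM-scaled CPM, counts per 1000000 library counts, and class values as mean ± SD over libraries. A count of 3, taken as the limit that a count of 0 allows, equals 0.643 CPM in the median library; this limit covers counting error only. In pooled cells, fewer cells with a transcript and less of the transcript per cell cannot be told apart. CEP libraries stood first among the classes for the summed level of their 6 marker genes, with a median of 1838 CPM against 52.5 CPM in the median class, and RIM libraries stood 3rd for 4 RIM markers. HSN stood 9th for 6 HSN markers and NSM 11th for 4 NSM markers, while RIC was 14th for its only listed marker, mgl-1, a level too low to check that label. AIM stood 4th for 5 AIM markers, CAN 10th for 2 CAN markers and VC 32nd for 3 VC markers. Genes of non-neuronal tissues, 34 in all, summed to 368 to 39847 CPM per library, and their levels are given below for some of the classes that were high for a member.

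All 10 genes differed among the 53 classes by edgeR's quasi-likelihood F-test, with adjusted p-values from 8.53e-83 for dat-1 to 1.66e-07 for ptps-1. Of all tested genes 95.5% were called by the same test, so the count of 10 does not set these genes apart. A second set of contrasts compared each class with the average of the other 52. Over the 530 tests of a member in a class, 49 were called higher and 29 lower at an adjusted p under 0.05 by edgeR, against 11.4% of all gene and class tests called higher and 3.05% called lower. Textbook knowledge of the worm's monoamine neurons gave 26 gene and class pairs for classes in this series, in 8 classes. Of these, 21 were called higher by edgeR and 21 by limma-voom, where 11.9% of all tests in the 8 classes were called higher by edgeR. The pairs were listed with earlier results of these data known, so the share called is a description and not an independent test. The 5 pairs not called were cat-1 in AIM and in VC and ptps-1 in CEP, NSM and HSN. With each class set against classes of its own label set only, edgeR again called 21, and none of the 26 changed its call; cat-2 and dat-1 in CEP, for example, had log2 fold changes of 7.88 and 9.79 against the other 6 classes of the smaller set. The other 28 higher calls fell outside the textbook pairs, and limma-voom also called 14 of them. As a share of the tests outside the pairs, these 28 do not exceed the 11.4% of all gene and class tests. Their number therefore does not set the genes apart.

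**Figure D1:**
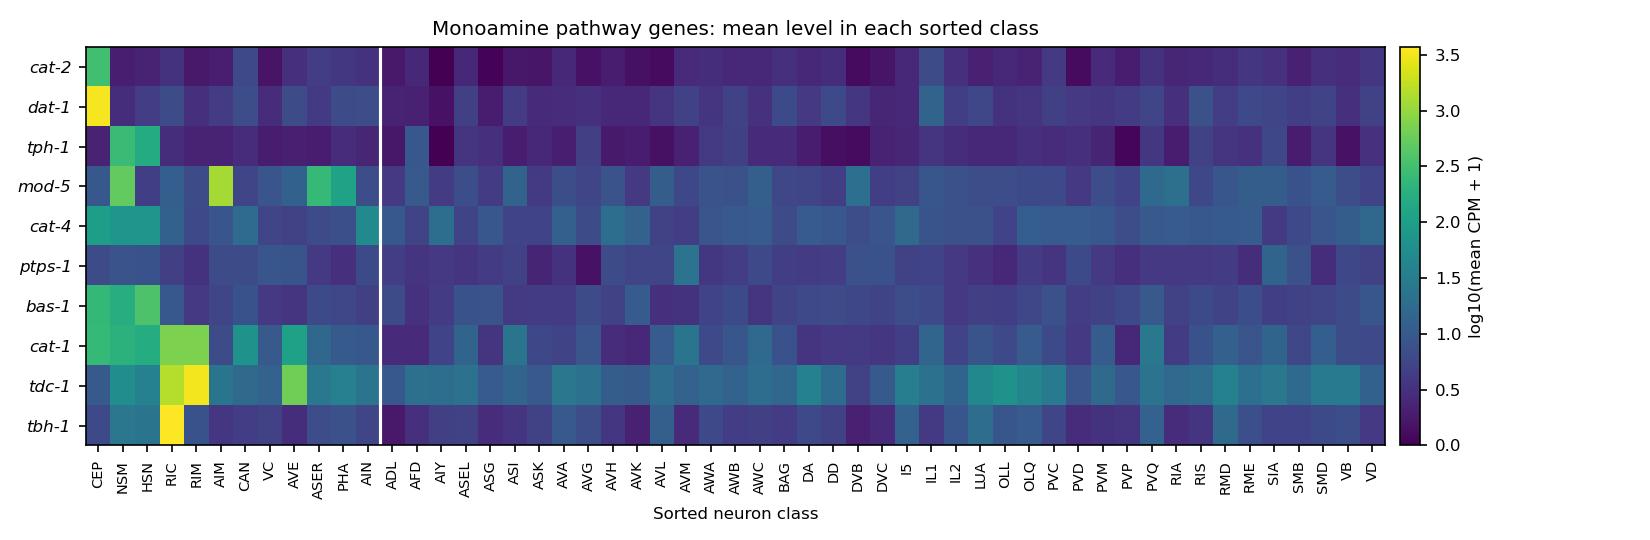
Mean level of each of the 10 genes (rows) in each of the 53 sorted classes (columns), drawn as log10(mean CPM + 1); the classes left of the white line are those named most in the text. Most genes have 1 to 4 bright classes on a dark ground, cat-1 has 7, tdc-1 has a raised level in most classes, and ptps-1 is dark throughout. Levels are not scaled by exon length, so brightness does not compare 1 gene with another.

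The genes of dopamine synthesis and uptake, cat-2 and dat-1, were far higher in CEP than in any other class. The gene cat-2 (WBGene00000296, chromosome II, 257819 to 261074, plus strand), which encodes tyrosine hydroxylase, was counted at 375, 259, 230.6 and 346 CPM in the 4 CEP libraries. No other library exceeded 9.53 CPM, which was reached in IL1r106, so the 4 CEP libraries lay above all others without overlap. CEP averaged 303 ± 68.9 CPM (SD, n = 4), and the next class, IL1, averaged 5.49 ± 3.51 CPM (n = 3). The edgeR contrast of CEP with the other classes was a log2 fold change of 7.94 (SE 0.20, adjusted p = 3.01e-82), in a class where 13.4% of all genes were called higher.

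The dopamine transporter dat-1 (WBGene00000934, chromosome III, 9242975 to 9246802, plus strand) was counted at 2922, 3118, 2575 and 4469 CPM in the 4 CEP libraries. The highest library of any other class was RISr132, with 17.8 CPM. CEP averaged 3271 ± 830 CPM (n = 4), 259-fold the IL1 mean of 12.6 ± 5.33 CPM (n = 3), and held 94.9% of the summed class means. The log2 fold change was 10.12 (SE 0.20, adjusted p = 8.23e-97, edgeR). Among 19979 protein-coding genes ranked by CPM per kilobase of exon in CEP, dat-1 was 52nd and cat-2 693rd. Genes next to dat-1 were also high in CEP, and the limit this sets on the dat-1 level is given below. The IL1 libraries were also called higher than the other classes for both genes, by edgeR and by limma-voom, with log2 fold changes of 2.06 for cat-2 (adjusted p = 6.81e-05) and 1.95 for dat-1 (adjusted p = 0.00033), in a class where 7.03% of genes were called higher. IL1 levels of dat-1 were 15.9, 15.5 and 6.50 CPM. For cat-2, CAN was called higher by both tools at a mean of 5.09 CPM, and ASER, PHA and PVC by edgeR alone at 2.85 to 3.51 CPM, where 22.1% of all genes were called higher in PVC.

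The serotonin genes tph-1 and mod-5 were both high in NSM, whereas HSN had high tph-1 and little mod-5. Tryptophan hydroxylase, tph-1 (WBGene00006600, chromosome II, 7549335 to 7551983, plus strand), was at 39.5, 339 and 82.7 CPM in the HSN libraries HSNr237, HSNr238 and HSNr239, and at 427, 40.8 and 351 CPM in the NSM libraries NSMr59, NSMr68 and NSMr69. All 6 stood higher than any library outside their classes, the highest of which was AFDr36 with 17.7 CPM. HSN averaged 153.7 ± 161.8 CPM and NSM 273 ± 204.5 CPM (SD, n = 3 each), a difference below the spread within either class. The log2 fold change over the other classes was 6.702 in HSN (SE 0.29, adjusted p = 2.43e-50) and 7.54 in NSM (SE 0.27, adjusted p = 6.69e-59), both by edgeR, with 12.9% of all genes called higher in HSN and 13.1% in NSM. AFD, a thermosensory class, came next with 8.29 ± 6.99 CPM (n = 5) and a log2 fold change of 2.41 (adjusted p = 1.18e-06, edgeR), where 21% of all genes were called higher. Its libraries were at 13.1, 17.7, 1.83, 1.96 and 6.86 CPM, so 2 of the 5 were close to the median of the other classes. SIA was called higher by edgeR but not by limma-voom, at 5.00 ± 4.06 CPM (n = 4), where 16% of all genes were. The gene ZK1290.10, which overlaps the end of tph-1 by 43 bases on the opposite strand, was also highest in AFD, at 45.8 ± 42.5 CPM, where the highest other class had 2.42 CPM. Whether reads were counted by strand is not given in the sources used here, so reads of this pair in the overlap cannot be assigned.

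The serotonin transporter mod-5 (WBGene00003387, chromosome I, 3034716 to 3047794, minus strand) was highest in AIM, at 744, 574, 3137 and 467 CPM in AIMr190 to AIMr193. NSM followed, with 298, 89.7 and 1148 CPM. AIM averaged 1230 ± 1276 CPM (n = 4) and NSM 512 ± 561 CPM (n = 3), and the ranges overlapped. The log2 fold changes over the other classes were 7.33 in AIM (SE 0.20, adjusted p = 1.29e-75) and 6.04 in NSM (SE 0.24, adjusted p = 5.33e-54) by edgeR, with 6.12% of all genes called higher in AIM. These SEs use the spread over all classes and do not show the wide spread within AIM or NSM. The fit of CEP and NSM libraries alone gave an SE of 0.84 for mod-5. Library AIMr192 was also highest for 9 pan-neuronal genes, whose sum was 14102 CPM there and 2514 to 3313 CPM in the other 3 AIM libraries. Its 34 non-neuronal genes had the lowest sum of the class, at 1777 CPM against 2878 to 3294 CPM. The part of these sums in the mod-5 level was not tested.

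HSN libraries, by contrast, had 3.43, 1.83 and 5.33 CPM of mod-5, at or below the median class, which had 6.18 CPM. Per kilobase of exon, the ratio of mod-5 to tph-1 ranged between 0.004 and 0.064 in the 3 HSN libraries and between 0.514 and 2.41 in the 3 NSM libraries. These ranges did not overlap.

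Among the sensory classes, ASER and PHA carried mod-5 as well, whereas ADL had the lowest mean of the 53 classes, at 2.85 CPM. The right gustatory neuron ASER had 379, 240, 220 and 146.8 CPM, and the phasmid neuron PHA had 35.6, 166.4, 176.9 and 75.8 CPM. Both classes were called higher by edgeR and by limma-voom, with edgeR log2 fold changes of 4.97 in ASER (SE 0.24, adjusted p = 3.27e-44) and 3.83 in PHA (SE 0.27, adjusted p = 5.56e-27), where 14.5% and 14.6% of all genes were called higher. The left partner of ASER, ASEL, had 3.46 to 11.1 CPM. ASER averaged 246 ± 97.2 CPM (n = 4) and ASEL 6.21 ± 4.23 CPM (n = 3). This pair was chosen for a test after the levels had been seen, so its difference is given as a description: edgeR fitted with the 7 libraries gave a log2 fold change of 4.90 (SE 0.45), and 11.4% of the 10059 genes in that fit were called. RIA and DVB were called higher by edgeR but not by limma-voom, at 19.9 ± 25.4 CPM and 19.4 ± 14.7 CPM, in classes where 9.75% and 13% of all genes were called higher. In ASER, the library highest for mod-5, ASERr144, had the lowest non-neuronal sum, 1532 CPM. ASERr147, lowest for mod-5, had the highest sum, 3451 CPM. In PHA the sum was highest, at 6455 CPM, in PHAr206, which was also highest for mod-5. The part of these sums in the mod-5 levels was not tested.

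**Figure D2:**
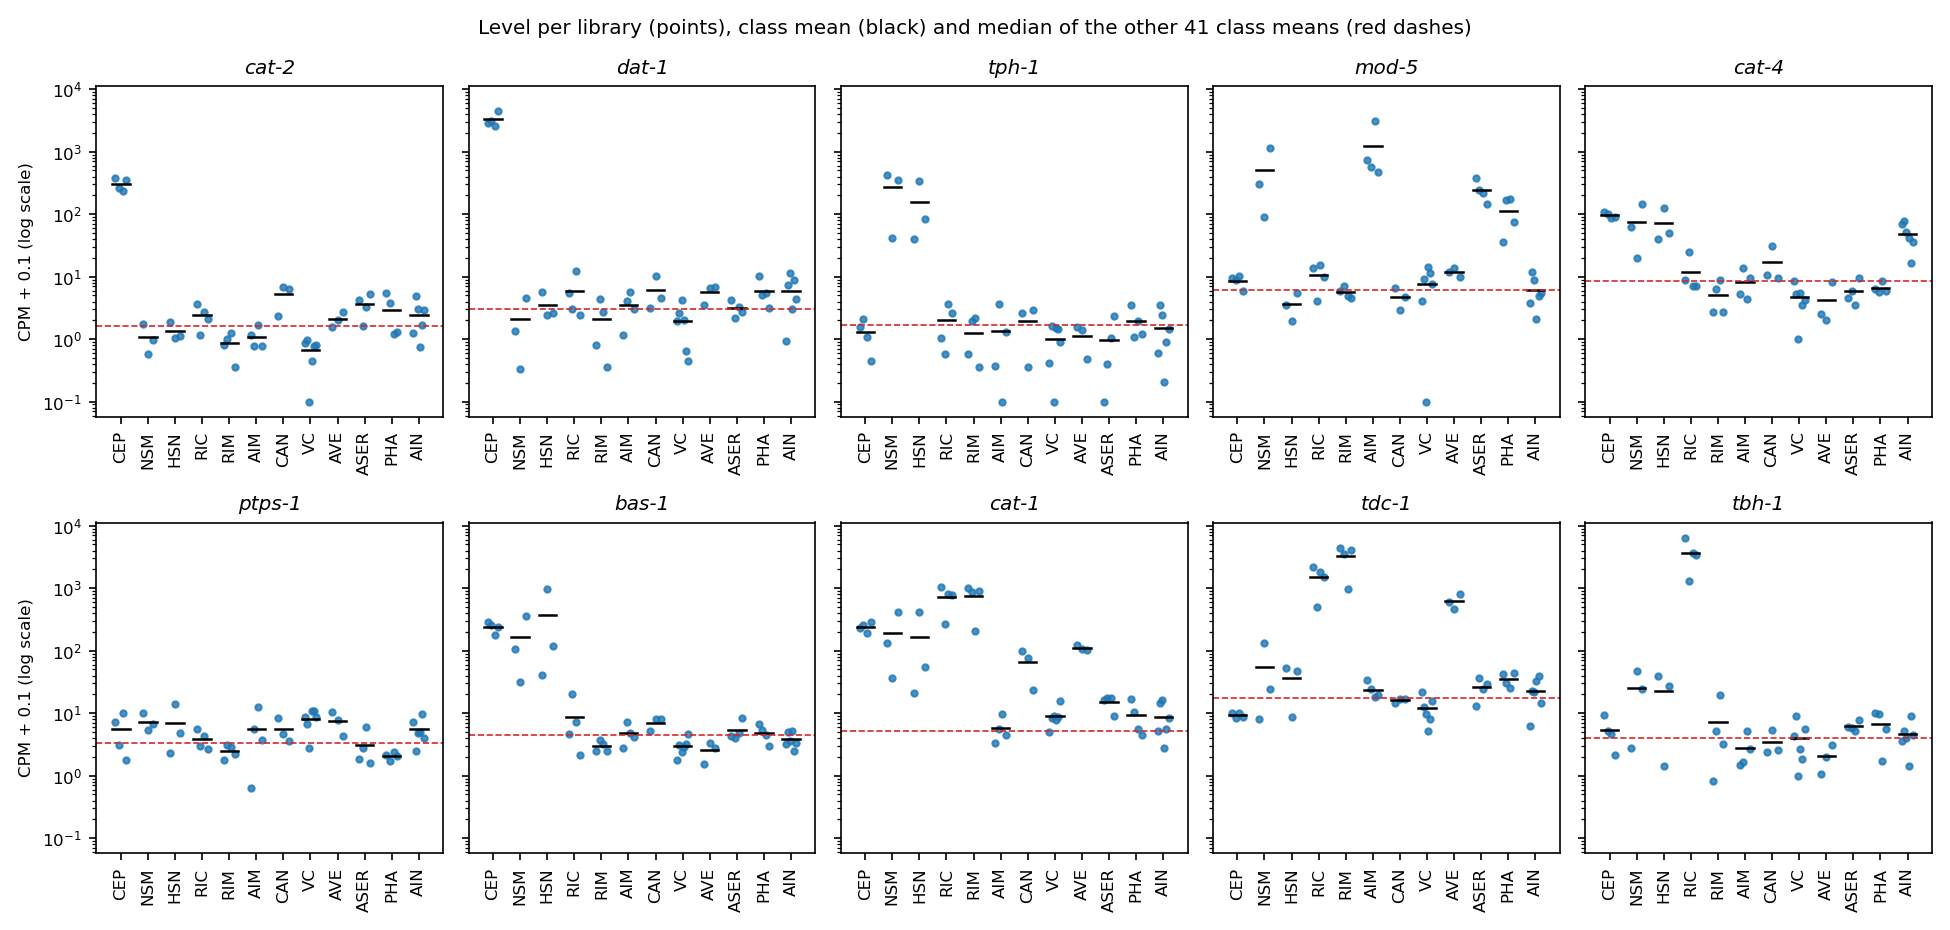
Level of each of the 10 genes in every library (points, CPM + 0.1 on a log axis) of 12 classes, with class means as black bars and the median of the other 41 class means as a red dashed line. The 4 CEP libraries stand alone for cat-2 and dat-1, the 4 RIC libraries stand alone for tbh-1, and the 3 NSM and 3 HSN libraries scatter widely for every gene that is high there.

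The enzymes shared by dopamine and serotonin cells were high in CEP, NSM and HSN together. The decarboxylase bas-1 (WBGene00000239, chromosome III, 5612274 to 5614660, plus strand) was at 291, 259, 176.3 and 235 CPM in CEP, at 107, 31.2 and 363 CPM in NSM, and at 40.7, 966 and 117 CPM in HSN. These 10 libraries stood higher than any library outside their classes, the highest of which was RICr135 with 20.5 CPM. Class means were 240 ± 48.3 CPM in CEP, 167.3 ± 174.04 CPM in NSM and 375 ± 514 CPM in HSN, and neighbouring means differed by less than the larger SD. Log2 fold changes were 5.52, 4.98 and 6.17 in CEP, NSM and HSN, with adjusted p-values by edgeR of 3.92e-56, 1.34e-40 and 1.78e-60. No class outside these 3 was called higher. The near relative basl-1, 287 bases downstream on the same strand, had its highest class mean in CEP, at 6.80 ± 3.74 CPM. Single libraries of basl-1 reached 14.8 CPM, in IL2. It was called higher in CEP by edgeR (adjusted p = 0.00223) and limma-voom (adjusted p = 0.000992), and by both tools also in HSN and OLL.

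The GTP cyclohydrolase gene cat-4 (WBGene00000298, chromosome V, 10564880 to 10566464, plus strand) showed the same 3 classes and AIN, an interneuron class with no listed monoamine. CEP libraries had 107, 99.6, 86.8 and 90.6 CPM, NSM libraries 61.3, 20.04 and 144.2 CPM, and HSN libraries 39.5, 127 and 49.5 CPM. The 6 AIN libraries ranged from 16.7 to 78.6 CPM with a mean of 48.8 ± 22.7 CPM. The log2 fold change was 3.47 in CEP (adjusted p = 7.68e-22), 3.11 in NSM (adjusted p = 3.39e-13), 3.05 in HSN (adjusted p = 1.44e-13) and 2.49 in AIN (adjusted p = 1.8e-14), all by edgeR, with 13.8% of all genes called higher in AIN. The separation was less complete than for bas-1: 13 libraries of other classes exceeded the lowest of these 16, and AVHr175 reached 38.4 CPM. In AIN, tph-1, cat-2, bas-1 and dat-1 were not called higher, and bas-1 was at 2.39 to 5.05 CPM there. The 6 CEP markers summed to 317 to 949 CPM in the AIN libraries, a median of 673 CPM and 2nd of the classes. Of the 6, ast-1 (444 ± 172.1 CPM) and ceh-43 (164.6 ± 65.02 CPM) were 1st and 3rd in AIN, and the other 4 stood 19th to 29th, with trp-4 at 5.51 CPM and asic-1 at 3.84 CPM. The part of CEP cells in the cat-4 level of AIN was not tested.

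The next enzyme of the cofactor pathway, ptps-1 (WBGene00015010, chromosome I, 4652145 to 4652906, minus strand), was low everywhere and was not called higher in CEP, NSM or HSN. CEP had 7.13, 3.05, 9.91 and 1.71 CPM, NSM 9.89, 5.25 and 6.62 CPM, and HSN 2.21, 13.8 and 4.68 CPM, with a median class at 3.44 CPM. HSN was called by limma-voom once HSNr237 was left out, with a log2 fold change of 1.19 (adjusted p = 0.0256). Its exon length of 464 bases is the shortest of the 10 genes. The touch neuron AVM was highest, at 21.8, 20.5 and 24.3 CPM, and was called higher with a log2 fold change of 2.62 (SE 0.38, adjusted p = 4.00e-09, edgeR), where 6.86% of all genes were. SIA and VC were also called higher by edgeR, where 16% and 20.3% of all genes were. AVM and VC were called by limma-voom as well, and SIA was not. SIA rested on SIAr242, with 47.7 CPM against 0.40 to 3.02 CPM in the other 3 libraries.

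The vesicular transporter cat-1 (WBGene00000295, chromosome X, 5705690 to 5710737, minus strand) was called higher by both edgeR and limma-voom in all 5 classes that make a monoamine, and in AVE and CAN. RIC libraries were at 1038, 263, 812 and 781 CPM and RIM libraries at 991, 879, 204.2 and 890 CPM. CEP libraries were at 230, 257, 192.6 and 286 CPM. NSM spanned 36.97 to 410 CPM and HSN 20.8 to 413 CPM over 3 libraries each. RIC (723 ± 328 CPM) and RIM (741 ± 362 CPM) did not differ beyond their spread, nor did CEP (241 ± 39.9 CPM), NSM (192.5 ± 194.2 CPM) and HSN (162.9 ± 217.5 CPM). Log2 fold changes over the other classes in these 5 were lowest in HSN, at 4.18, and highest in RIM, at 6.41. With all other libraries taken as 1 group, whose spread then includes the other high classes, RIC and RIM were still called, and CEP, NSM, HSN and CAN were not (log2 fold changes of 2.46, 2.08, 1.82 and 0.48, adjusted p = 0.151, 0.364, 0.502 and 0.898 by edgeR).

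AVE, a command interneuron class, had 121.9, 105.4 and 103 CPM of cat-1, and CAN had 97.8, 77.2 and 23.8 CPM. Both were called, with log2 fold changes of 3.61 in AVE (SE 0.35, adjusted p = 3.28e-17) and 2.86 in CAN (SE 0.37, adjusted p = 2.68e-10) by edgeR, where 5.97% and 7.76% of all genes were called higher. CAN was 53rd of the classes for the pan-neuronal genes, with a median sum of 756 CPM, and AVE was 42nd. For the muscle genes CAN was 1st and for the pharynx muscle genes 2nd. The part of non-neuronal RNA in the cat-1 level of CAN was not tested. PVQ (25.8 ± 20.1 CPM) and ASI (22.4 ± 16.8 CPM) were called by edgeR alone, where 17.3% and 10.2% of all genes were called higher. In AIM, cat-1 was at 3.25, 5.57, 9.45 and 4.41 CPM, 30th of the 53 classes. In the 6 VC libraries it ran from 4.96 to 15.7 CPM with a mean of 9.03 ± 3.57 CPM, 22nd of 53. Neither class was called, with an adjusted p of 0.496 in AIM and 1 in VC by edgeR. Of the 3 VC markers, unc-4 was at 210 ± 43.1 CPM in VC and lin-11 at 97.1 ± 25.7 CPM, 1st and 10th of the classes, whereas ida-1 was 50th. Their sum had a median of 562 CPM in VC against 786 CPM in the median class, and the 9 pan-neuronal genes were 44th of the classes in VC.

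The tyramine gene tdc-1 (WBGene00006562, chromosome II, 8270597 to 8273615, plus strand) was highest in RIM, RIC and AVE. RIM libraries RIMr222 to RIMr225 had 4418, 3494, 982 and 4042 CPM, RIC libraries RICr134 to RICr137 had 2173, 498, 1815 and 1523 CPM, and AVE libraries had 607, 458 and 817 CPM. These 11 libraries stood higher than any library outside their classes, the highest of which was NSMr68 with 130 CPM. Means were 3234 ± 1549 CPM in RIM, 1502 ± 720 CPM in RIC and 627 ± 180 CPM in AVE, and the ranges of each class overlapped with the next. The edgeR log2 fold changes were 7.25 in RIM (SE 0.20, adjusted p = 2.01e-76), 6.12 in RIC (SE 0.21, adjusted p = 2.13e-63) and 4.84 in AVE (SE 0.27, adjusted p = 2.08e-37), with 11.6% of all genes called higher in RIM and 9.68% in RIC. Among protein-coding genes ranked per kilobase, tdc-1 stood at place 40 in RIM and at place 220 in AVE.

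A lower level of tdc-1 ran through most of the series. Class means were at least 10 CPM in 44 of the 53 classes, more than for any other of the 10 genes, and the median class was at 18.3 CPM. These levels are not scaled by exon length, which was 2490 bases for tdc-1. Per kilobase of exon, the median class was at 7.35 CPM for tdc-1, 9.10 CPM for cat-4 and 7.42 CPM for ptps-1. OLL, a head mechanosensory class, came next with 96.2 and 32.9 CPM in its 2 libraries and was called higher (adjusted p = 0.0225, edgeR), where 15.9% of all genes were. NSM was called higher by edgeR but not by limma-voom, at 54.3 ± 66.3 CPM (n = 3), where 13.1% of all genes were. Its libraries spread from 8.09 CPM to 130 CPM, the latter in NSMr68.

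The octopamine gene tbh-1 was far higher in RIC than in any other class. Tyramine beta-hydroxylase, tbh-1 (WBGene00006541, chromosome X, 15500256 to 15504895, minus strand), had 6459, 1305, 3676 and 3398 CPM in the 4 RIC libraries, and no library of another class exceeded 47.9 CPM. RIC averaged 3709 ± 2116 CPM (n = 4), 149.5-fold the NSM mean of 24.8 ± 22.6 CPM (n = 3), and held 92.6% of the summed class means. The log2 fold change was 9.76 (SE 0.24, adjusted p = 2.20e-82, edgeR), and tbh-1 was 42nd among protein-coding genes per kilobase in RIC. RIM, which makes tyramine, had 0.71, 5.05, 19.3 and 3.13 CPM, with the highest value in RIMr224. Lower but called levels stood in NSM, HSN, LUA, RMD, I5 and PVQ, at class means of 12.2 to 24.8 CPM, of which HSN and RMD were also called by limma-voom. In LUA, RMD, I5 and PVQ, 14.5%, 11.8%, 15.6% and 17.3% of all genes were called higher.

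AVE shared more than tdc-1 and cat-1 with RIM. The RIM marker cex-1 was at 220 ± 8.36 CPM in AVE, against 853 ± 461 CPM in RIM, and the AVE level was 25.8% of that in RIM; the same share was 19.4% for tdc-1 and 14.9% for cat-1. The other listed RIM markers did not share that proportion: glr-1 was at 100 ± 55.8 CPM in AVE and 206.1 ± 86.6 CPM in RIM, flp-18 at 646 ± 8.34 CPM in AVE and 189.04 ± 116 CPM in RIM, and gcy-13 was at 0 in all 3 AVE libraries and at 0.47 to 1.30 CPM in RIM. After these values were seen, 3 genes were picked that had at least 100 CPM in RIM and at least 20-fold more than in every class but AVE. Their AVE level was 10.3% of the RIM level for oct-1, 6.24% for F23H12.7 and 0.042% for ZC178.2, each below the 19.4% of tdc-1. The part of RIM cells in the AVE libraries was not tested.

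**Figure D3:**
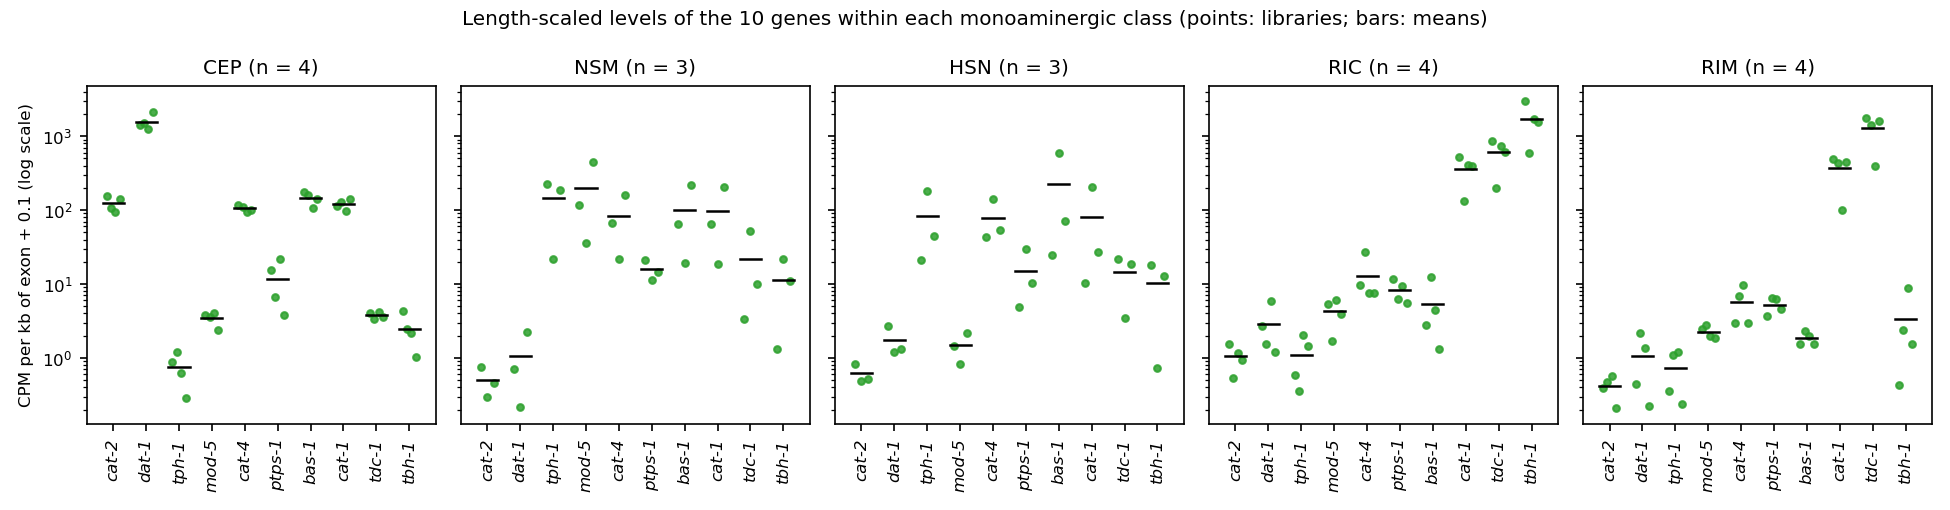
Length-scaled level (CPM per kilobase of exon, plus 0.1, log axis) of the 10 genes within CEP, NSM, HSN, RIC and RIM; points are libraries and bars are means. In CEP dat-1 stands above cat-2, cat-4, bas-1 and cat-1, which lie close together, and in RIC tbh-1 stands above tdc-1 and cat-1.

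Scaled by exon length, the genes of a pathway could be compared within a library. In CEP, the medians over 4 libraries were 1.01 for cat-1, 1.14 for bas-1 and 0.881 for cat-4 relative to cat-2, so these genes and cat-2 were at like levels. The synthesis gene ptps-1 was lower, at a mean of 11.7 CPM per kilobase against 124 for cat-2. The carrier dat-1 stood apart, at 9.14 to 15.2 times cat-2 per kilobase in the same 4 libraries (median 13.6). In RIC, tbh-1 was 2.31 to 3.39 times tdc-1 (median 2.77). Genes that adjoin dat-1 or overlap tbh-1 were high in the same classes, as given below. Reads from a reporter could not be told apart in these ratios. The ratio of cat-1 to tdc-1 per kilobase was 0.555 to 0.655 in RIC, 0.258 to 0.312 in RIM and 0.156 to 0.285 in AVE. In RIC and RIM, but not in AVE, it varied by less between libraries than the levels of both genes did, and the RIC range lay above those of RIM and AVE. In NSM and HSN the ratios of cat-1, bas-1 and cat-4 to tph-1 spread widely, from 0.284 to 1.18 in NSM and from 0.490 to 3.24 in HSN.

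Within each of NSM, HSN, RIC and RIM, a single library was lowest for all the genes that were high in the class, and it had the highest non-neuronal sum of its class. In HSN, HSNr238 had the highest tph-1, bas-1, cat-4 and cat-1, and its 34 non-neuronal genes summed to 2369 CPM, against 39847 CPM in HSNr237 and 28934 CPM in HSNr239. Most of that sum came from 6 intestinal genes, whose median in HSN was 25446 CPM against 643 CPM in the median class. The genes tdc-1 and tbh-1 ran the other way in HSN, at 8.52 and 1.35 CPM in HSNr238 and at 46.6 to 53.3 and 27.4 to 39.1 CPM in the other 2 libraries. In NSM, NSMr68 had the lowest tph-1, mod-5, cat-4, bas-1 and cat-1 and the highest tdc-1 and tbh-1, with a non-neuronal sum of 9970 CPM, against 5096 CPM in NSMr59 and 8345 CPM in NSMr69. Between these last libraries the order did not hold: NSMr69 had more mod-5, cat-4, bas-1 and cat-1 than NSMr59, and less tph-1. RICr135, lowest in RIC for tdc-1, tbh-1 and cat-1, had 8869 CPM against 2054 to 2657 CPM, and RIMr224, lowest in RIM for tdc-1 and cat-1, had 5009 CPM against 1687 to 2406 CPM. CEP did not show this order. The library lowest there for cat-2, dat-1, bas-1, cat-4 and cat-1 was CEPr279, with a non-neuronal sum of 4646 CPM. The highest sum in CEP, 6015 CPM, was in CEPr281, which had the highest dat-1 and cat-1. The sum of 9 pan-neuronal genes was lowest in NSMr68, RICr135, RIMr224 and CEPr279 within their classes and highest in HSNr238. The part of non-neuronal RNA in these levels was not tested.

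Classes that use different amines were next compared directly, in fits of their own libraries. Between CEP and NSM, 4 of the 10 genes were called, where 8.98% of 11771 genes were. By edgeR, CEP was higher for cat-2 (303 ± 68.9 CPM in CEP, 0.99 ± 0.58 CPM in NSM, log2 fold change 8.06, SE 0.64, adjusted p = 0.00044) and for dat-1 (log2 fold change 10.70, SE 1.12, adjusted p = 0.00077). By the same edgeR fit, CEP was lower for tph-1 (1.21 ± 0.72 CPM in CEP, 273 ± 204.5 CPM in NSM, log2 fold change -7.93, SE 0.92, adjusted p = 0.00138) and for mod-5 (8.54 CPM in CEP, 512 CPM in NSM, log2 fold change -6.02, adjusted p = 0.00359). Libraries of the 2 classes did not overlap for these 4 genes and did for the other 6. Without NSMr59, tdc-1 and tbh-1 were called lower in CEP as well (adjusted p = 0.0115 and 0.0192, edgeR). Without CEPr269, CEPr278, NSMr68 or NSMr69 the same 4 of the 10 genes were called, where 311, 345, 650 and 374 genes were called in all, against 1057 with all libraries. CEP and NSM lie in different label sets, which cannot be told apart from class here.

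Between CEP and HSN, both in the smaller label set, 3 of 10 genes were called, where 6.97% of 12694 genes were. The edgeR log2 fold changes were 7.97 for cat-2 (adjusted p = 0.000141) and 9.96 for dat-1 (adjusted p = 0.000141), both higher in CEP, and -6.78 for tph-1 (adjusted p = 0.0009), lower in CEP. Libraries of CEP also lay above those of HSN for mod-5, but the difference was not called (8.54 CPM in CEP, 3.53 CPM in HSN, adjusted p = 0.231, edgeR). The count rested on HSNr238, the library with few non-neuronal transcripts: without it 8 members were called and 2456 genes in all, with cat-1, cat-4 and bas-1 higher in CEP (log2 fold changes of 2.66, 1.05 and 1.57 by edgeR) and tdc-1 and tbh-1 lower (-2.51 and -2.76). Leaving out CEPr269, CEPr278, CEPr281 or HSNr239 kept the 3 called members and brought the count over all genes down to 496, 529, 579 and 465, against 885 with all libraries. With all libraries, tdc-1 was called lower in CEP by DESeq2 (adjusted p = 0.0256) and by the edgeR fit of all classes (adjusted p = 0.0313).

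HSN and NSM, which both make serotonin, gave no called gene by edgeR. None of the 9 tested members and 0 of 13243 genes (0%) were called, while 1435 genes had an unadjusted p under 0.05, DESeq2 called 617 genes, and the fit of all 53 classes called 795 of 20427. Leaving out NSMr68 gave 1 called gene, not a member. The gene mod-5 had the only non-overlapping libraries among the tested members, at 3.53 CPM in HSN and 512 CPM in NSM, with a log2 fold change of -7.29 (SE 1.19, adjusted p = 0.141 by edgeR). It was called lower in HSN by DESeq2 (adjusted p = 7.83e-12).

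Between RIC and RIM, the octopaminergic and tyraminergic classes of a common label set, 1 of 9 tested members was called, where 14.6% of 10889 genes were. It was tbh-1, higher in RIC with a log2 fold change of 8.88 (SE 1.04, adjusted p = 0.000908, edgeR). The level of tdc-1 was 1502 ± 720 CPM in RIC and 3234 ± 1549 CPM in RIM (log2 fold change -1.08, SE 0.49, adjusted p = 0.177, edgeR), and cat-1 differed by -0.01 on the log2 scale (SE 0.48). Without RIMr224, tdc-1 was called lower in RIC (log2 fold change -1.37, adjusted p = 0.0326, edgeR), and without RICr135 mod-5 was called higher in RIC (log2 fold change 1.18, adjusted p = 0.0371, edgeR). The count over all genes was 2631 without RICr135, and 931 to 1055 without RICr137, RIMr222, RIMr223 or RIMr225, against 1593 with all libraries; tbh-1 was called in each.

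Fewer tests gave a lower level than the other classes. Of the 29 lower calls, limma-voom also made 12. The nociceptive class ADL was called lower by edgeR for cat-1, mod-5, tdc-1 and tbh-1, with class means of 1.67, 2.85, 8.61 and 0.782 CPM, where 3.27% of all genes were called lower. AVK was called lower for the same 4 genes, at 1.57, 2.89, 9.24 and 1.14 CPM, where 4.05% were. AFD was called lower for cat-1, bas-1 and dat-1, where 9.19% were, and cat-1 was at 1.77 CPM there against 7.58 CPM in the median of the other classes. The lowest tdc-1 was in DVB, at 4.09 ± 2.00 CPM (n = 3), with an edgeR log2 fold change of -2.57 (adjusted p = 0.00198), where 9.73% of all genes were called lower. At these levels a class mean rests on counts as low as 1 in a library for tbh-1, and 6 to 22 for tdc-1 in DVB.

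Several genes next to a member carried high counts in the same class. Upstream of dat-1, saeg-2 lies 460 bases away on the same strand and the non-coding RNA gene T23G5.11 lies between them on the opposite strand. In CEP, saeg-2 was at 3295 ± 1275 CPM and T23G5.11 at 807 ± 316 CPM (n = 4). No other class exceeded 41.4 CPM for saeg-2 or 1.56 CPM for T23G5.11.

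The non-coding RNA gene K01C8.11, 249 bases upstream of tdc-1 on the same strand, was at 2062 ± 1046 CPM in RIC and 29.5 ± 15.5 CPM in RIM, the reverse of the order of tdc-1. K01C8.2, 1145 bases upstream of tdc-1, was at 552 ± 256 CPM in RIC, 95.1 ± 47.6 CPM in RIM and 27.9 ± 1.25 CPM in AVE, against 1.12 CPM in the median class. H13N06.7, which overlaps 1772 bases of tbh-1 on the opposite strand, was at 821 ± 461 CPM in RIC, and the next class, IL2, was at 60.8 CPM. The non-coding RNA gene F32G8.10, 324 bases upstream of cat-4 on the opposite strand, was at 23.2 ± 17.1 CPM in HSN and at no more than 0.251 CPM in any other class, including CEP and NSM where cat-4 was as high. In contrast, scc-2, the cohesin loader gene that contains the whole of cat-2 on the opposite strand, was at 91.2 ± 29.3 CPM in CEP, close to its median class of 92.99 CPM. The labels used here name no construct, so reads from a reporter that carries these stretches and reads from the chromosomal genes cannot be told apart. The same limit holds for the members beside them, dat-1, tdc-1, tbh-1 and cat-4, and for their shares, ranks and ratios given above.

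**Figure D4:**
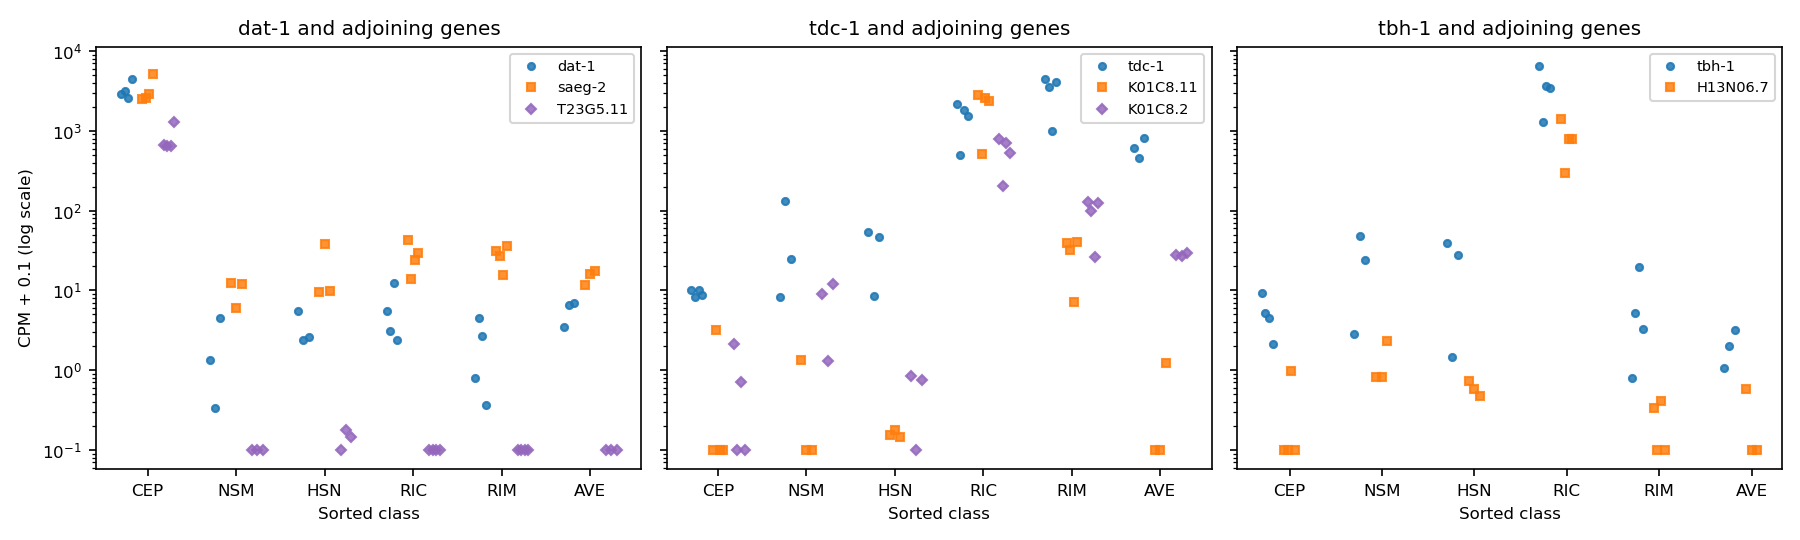
Levels (CPM + 0.1, log axis, not scaled by length) of dat-1, tdc-1 and tbh-1 and of adjoining genes in CEP, NSM, HSN, RIC, RIM and AVE; each point is a library. The adjoining genes of dat-1 are high in CEP, K01C8.11 and H13N06.7 are high in RIC, and K01C8.11 is low in RIM where tdc-1 is high.

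Other genes of monoamine and tetrahydrobiopterin metabolism were examined in the 5 classes that make a monoamine, in 13 of 14 genes that passed the filter (comt-2 did not). In CEP 4 of the 13 were called higher and 1 lower, in NSM 3 higher, in HSN 1 higher, in RIC none, with 1 higher in RIM. Shares of 13.4%, 13.1%, 12.9%, 9.68% and 11.6% of all genes were called higher in these classes in turn, and 0 or 1 of 13 lies below these shares.

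The cofactor recycling enzyme dihydropteridine reductase, qdpr-1, was called in CEP (119.04 ± 24.9 CPM, n = 4), NSM (49.9 ± 27.7 CPM, n = 3) and HSN (166.1 ± 187.4 CPM, n = 3), against 24.1 CPM in the median of the other classes, with edgeR log2 fold changes of 2.27, 0.99 and 2.76 (adjusted p = 1.35e-18, 0.00901 and 1.54e-22). The HSN mean rested on 1 library, with 382 CPM, against 48.2 and 67.8 CPM in the other 2, and the ranges of CEP and HSN overlapped. Pterin carbinolamine dehydratase, pcbd-1, was called in CEP and not in the other 4 classes, at 35.6 CPM against a median of 15.4 CPM (log2 fold change 1.30, adjusted p = 3.21e-05, edgeR). The monoamine oxidase gene amx-2 was at 133 ± 55.3 CPM in RIM (n = 4) and 52.6 ± 37.7 CPM in NSM (n = 3, lowest 9.06 CPM), against a median of 15.9 CPM, with log2 fold changes of 3.10 (adjusted p = 2.85e-16) and 1.73 (adjusted p = 0.00202) by edgeR. It was also lower in RIC than in RIM in the direct comparison (12.6 CPM in RIC, 133 CPM in RIM, log2 fold change -3.31, SE 0.41, adjusted p = 0.00108, edgeR). Genes of the catechol-O-methyltransferase family were called at low levels. In CEP, comt-3 was at 30.4 to 46.1 CPM in the 4 libraries. CEP did not stand alone: edgeR called comt-3 higher in 13 classes, 11 of them also by limma-voom, and PVP, DVC and ASK among them had higher means than CEP. The means of comt-4 in CEP and comt-5 in NSM each rested on 1 library: comt-4 reached 26.6 CPM in 1 CEP library with a median of 0.604 CPM, and comt-5 reached 10.6 CPM in 1 NSM library with a median of 0.716 CPM. Of these 9 higher calls limma-voom made 5, namely qdpr-1 in CEP and HSN, pcbd-1 and comt-3 in CEP and amx-2 in RIM; with the other libraries as 1 group 4 remained, without comt-3. The decarboxylase-like gene hdl-1 was lower in CEP, at 0.17 CPM against a median of 1.82 CPM (adjusted p = 0.0237, edgeR), where 4.22% of all genes were called lower.

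**Figure D5:**
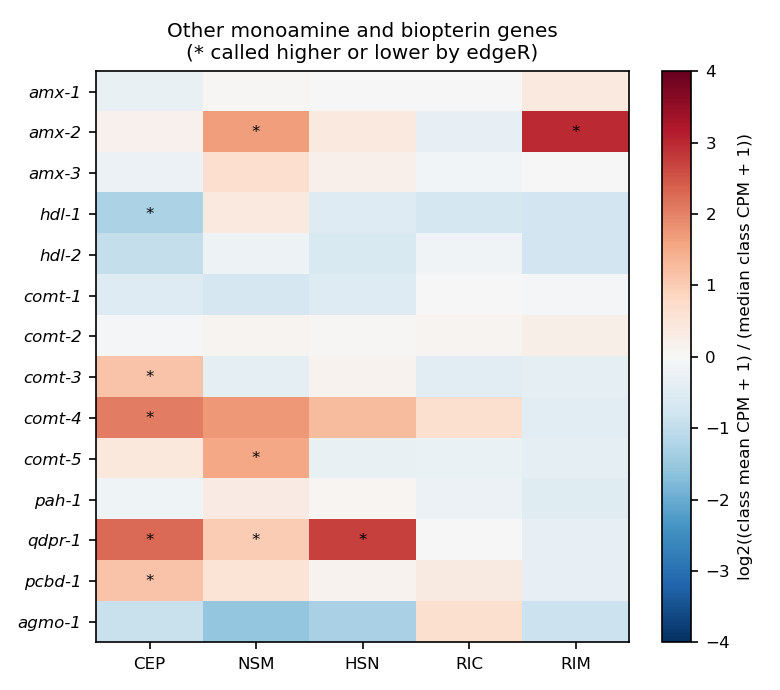
Level of 14 further genes of monoamine and biopterin metabolism in CEP, NSM, HSN, RIC and RIM, as log2 of (class mean CPM + 1) over (median class CPM + 1); asterisks mark genes called higher or lower than the other classes by edgeR. The darkest cells are amx-2 in RIM and qdpr-1 in HSN and CEP.

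The genes whose class means ran most like each member were found by Pearson's r of class means, taken as log2(CPM + 1), over the 53 classes, as a description in which classes share depth and sorting. The gene most like cat-2 was dat-1 (r = 0.93), followed by the arrestin-domain gene arrd-23 (r = 0.92), which peaked in CEP at 48.8 CPM. The gene most like cat-4 was bas-1 (r = 0.79), and qdpr-1 also ranked among the 3 genes most like bas-1 (r = 0.77). For tdc-1 it was K01C8.2 (r = 0.88), and for cat-1 it was F09E10.7 (r = 0.74), which was highest in CEP at 2599 CPM, and tdc-1 ranked among the 3 most like it (r = 0.69). For tph-1 it was srx-12 (r = 0.83), highest in NSM at 12.7 CPM, and for mod-5 sre-23 (r = 0.69), highest in AIM at 213.05 CPM. For tbh-1 it was a pseudogene, WBGene00044343 (r = 0.84), at 33.5 CPM in RIC. For ptps-1 the nearest was rpb-3, at an r of 0.61, the lowest first place of the 10 genes. Between members, tph-1 and cat-2 had an r of 0.01, tph-1 and bas-1 0.69, and tdc-1 and tbh-1 0.60.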

How the data were processed

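Total RNA of sorted neurons was sequenced. The authors deposited 1 table of raw read counts, whole numbers for every gene in every library, in featureCounts layout per the file headers. STAR 2.7.7a, UMI-tools 1.1.4 and Subread 2.0.3 are named, without role, in the submitters' processing notes. The genome build and the strand setting are not given in the sources used here; the table's name carries annotation release WS289, and 99.8% of its genes have the start and end of the Ensembl 115 annotation of WBcel235. Another 14 per-sample columns were not used here. No sequence of the genes was used.

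Each column was matched by name to its library and each library to its class through the labels. The 317 pairs of libraries of a class all differed beyond sampling noise, with a chi-square per degree of freedom of at least 5.11. Counts were scaled by TMM (factors 0.256 to 2.03), filtered with filterByExpr and tested with edgeR 4.0.16 (quasi-likelihood, Benjamini-Hochberg adjustment over all genes kept, adjusted p under 0.05) in R 4.3.3. The fit over all classes gave the F-test and the contrast of each class with the unweighted mean of the other 52; pairs of classes were fitted with their own libraries. The procedure was tested on simulated data. limma 3.58.1 (limma-voom), DESeq2 1.42.0 and other settings served as alternatives, and Python 3.11.15 was used for levels and figures. CPM per kilobase used the exon length in the table.

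The text names the 10 genes, 14 related enzyme genes, the 3 genes whose class means ran most like each, and genes that overlap or lie within 500 bases. The 10 genes and all lists were chosen with earlier results of these data known. Exceptions named after their values were seen are oct-1, F23H12.7 and ZC178.2, the ASER and ASEL pair, and the libraries that stand apart.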

Additional observations from a re-analysis of the deposited data

Results flagged for a closer look

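Dixon's gap ratio was computed for 58 sets of 4 to 6 libraries, each 1 gene in 1 class that the text compares, and chance flags about 1 in 20 of such sets. In 6 of them, 1 library stood apart from the rest of its class.

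For cat-1 in RIM, RIMr224 had 204.2 CPM, and the nearest of the other 3 libraries had 879 CPM, a gap of 0.858 of the class's range. In RIMr224 the 9 pan-neuronal genes summed to 1925 CPM, against 3593 to 4528 CPM in the other RIM libraries, and the 34 non-neuronal genes to 5009 CPM, against 1687 to 2406 CPM. For mod-5 in AIM, AIMr192 had 3137 CPM and the nearest other library 744 CPM, a gap of 0.896 of the range. Its pan-neuronal sum of 14102 CPM was also the highest of the 4 AIM libraries. For ptps-1 in SIA, SIAr242 had 47.7 CPM and the nearest other library 3.02 CPM, a gap of 0.945 of the range.

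The other 3 lay at low levels. In ADL, ADLr171 was highest for cat-1, at 3.07 CPM against 1.35 CPM in the nearest library, and for mod-5, at 5.75 CPM against 2.04 CPM. In PVC, PVCr216 had 8.31 CPM of cat-2 and the nearest library 2.19 CPM. The part of non-neuronal or pan-neuronal RNA in these levels was not tested.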

How the results depend on the processing

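All 10 genes differed among the classes under RLE size factors, without ribosomal RNA genes, without the filter, by limma-voom and in the 180 libraries with a kit description. Of the 26 textbook pairs, 17 were called with the other libraries as 1 group and 21 under the other settings of the whole fit; leaving out each library of the 8 classes in turn gave 21 to 22 by limma-voom. Of the 9 higher calls among further enzyme genes, 5 were made by limma-voom and 4 with the other libraries as 1 group. Between HSN and NSM, where edgeR called 0 members, 1 was called (mod-5) by DESeq2, without the filter and in the fit of all classes. Between CEP and HSN, 5 were called without the filter, against 3 with it. DESeq2 and the fit of all classes also called tdc-1 there, and called tdc-1 and tbh-1 between CEP and NSM. Leaving out 1 library gave 4 to 6 called members for CEP and NSM, 0 for HSN and NSM, 3 to 8 for CEP and HSN, and 1 to 2 for RIC and RIM.

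Among single genes, 327 of 339 values kept their direction and call. The difference of cat-1 in VC, not called in any fit, changed sign to 0.12 by limma-voom, to 0.038 within its label set, and to 0.36, 0.23, 0.20, 0.23 and 0.19 by limma-voom without VCr138, VCr139, VCr140, VCr141 and VCr142. Calls over all genes moved more: 1057 for CEP and NSM against 2737 by DESeq2, 2536 without the filter and 3859 in the fit of all classes; 885 for CEP and HSN against 1980, 2186 and 2788; and 0 for HSN and NSM against 617, 863 and 795. Genes called higher per class numbered 1251 to 4143 in the 8 classes, against 497 to 3951 by limma-voom, 697 to 4069 within label sets and 2034 to 5966 without the filter; with the other libraries as 1 group, CEP, NSM and HSN had 440, 334 and 411, against 2734, 2685 and 2627. The causes were not tested. No paired analysis was possible because library numbers are not shared between classes. Members at a few CPM rest on few counts in the shallower libraries, where the limit allowed by a count of 0 reaches 6.37 CPM.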
